A study of Homo sapiens with 60 samples.

Results

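The 36 genes described here are targets and regulators of the transcription factor NRF2, taken as a fixed list of gene symbols and followed in A549, a human lung adenocarcinoma cell line, across hot-water extracts used in Korean herbal medicine. The list itself uses no measured value, although it was drawn up with earlier results of these data known. All 36 were found by symbol among the 60675 genes of the deposited table, and all 36 were among the 17268 genes with enough counts to be tested.

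NRF2, encoded by NFE2L2, is a transcription factor that pairs with small MAF proteins, such as that encoded by MAFG, on antioxidant response elements and turns on genes of glutathione, thioredoxin, quinone, NADPH and iron metabolism. KEAP1 is the adaptor through which a CUL3 ubiquitin ligase marks NRF2 for degradation. When reactive compounds modify KEAP1, NRF2 escapes and accumulates. A549 is known for a KEAP1 mutation, and its NRF2 is therefore active without a stimulus, so the genes below were measured in cells where many of them already stand high. The deposited values are gene counts and do not show the mutation.

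All cells were harvested after 24 h. The extracts of single herbs were Aconiti Lateralis Radix Preparata, Cimicifugae Rhizoma, Citri Unshius Pericarpium and Bupleuri Radix, and those of mixtures Yijung-tang and Banhasasim-tang, each called by its first word below. Each was given at a low, a medium and a high dose with 3 libraries per dose, while the mixture Bojungikgi-tang was read in 1 library at each dose. Aconiti was given at 14.4, 72 and 360 µg/mL and every other extract at 20, 100 and 500 µg/mL, since the series text sets lower doses where the IC20 lies below 500 µg/mL. The reference was 3 vehicle libraries without extract, in DMSO, whose concentration is 0.1% per the sample labels and 2% per the series text. Every sample title, vehicle included, carries the tag Second BatchB. The first part of the sample codes sorts the libraries into 5 sets, with vehicle in a set of its own, Citri with Cimicifugae, Bupleuri with Aconiti, Yijung with Banhasasim, and Bojungikgi alone. The titles do not say what the libraries of a set share. In every comparison with vehicle, the extract and the set therefore cannot be told apart, whereas comparisons between doses of an extract, or between both extracts of a set, stay within a set. Nothing in the labels says that the libraries of a group came from separate cultures, so the p-values measure the spread between libraries, which may be technical.

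The 60 libraries held 17793655 to 30188211 counts, with a median of 25758911. Of 5 epithelial markers, the keratins KRT8 (2662 to 4720 CPM, counts scaled to library size) and KRT18 (2118 to 3785 CPM) were high in every library, while CDH1, KRT19 and EPCAM had medians of 28.03, 24.45 and 4.976 CPM. CDKN2A, a gene known to be deleted in A549, reached at most 3 counts in a library, and the blood and endothelial markers PTPRC, CD3E and PECAM1 had medians of 0. The endothelial CDH5 had a median of 0.03961 CPM, and CD14, a marker of monocytes, was detected in every library at 0.6968 to 2.781 CPM (median 1.802). Of 3 fibroblast markers COL1A2 and DCN had medians of 0, while COL1A1 ranged over 12.27 to 44.04 CPM and fell against vehicle with Aconiti at the high dose and with Yijung at the medium and high doses (log2 folds −0.57, −1.37 and −1.09), and its part in the results was not tested. Mitochondrial transcripts took 16.48 to 18.95% of the counts in the Aconiti high-dose libraries and 13.47 to 15.19% at its medium dose, against 7.906 to 8.541% in vehicle libraries. With these transcripts removed before scaling, the high dose of Aconiti had 11 of the 36 genes called against vehicle, and 10 with them. The 10 were 27.8% of the 36, against 32.7% of all tested genes, and the share of all genes with them removed is not reported here. Library 1 of the Citri medium dose stood apart: its genes with long transcripts exceeded those with short transcripts by a mean of 3.35 log2 units, against 4.041 to 4.155 in vehicle libraries. The Aconiti high-dose libraries were split on this balance, at 4.082, 3.786 and 3.798 for libraries 1, 2 and 3. Counts with this balance as a covariate are given below.

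In vehicle cells the 36 genes were all well expressed. Per kilobase of exon, the lowest, NFE2L2 itself, was at 19.67 CPM per kb, above 87.8% of the tested genes, and 27 of the 36 stood above more than 95% of them. FTL, the light chain of the iron store ferritin, led with 8565 CPM per kb, followed by the retinaldehyde dehydrogenase ALDH1A1 with 2204, the aldo-keto reductase AKR1B10 with 1644 and the ferritin heavy chain FTH1 with 1642 CPM per kb. The quinone reductase NQO1, the usual readout of NRF2 activity, had 493.2 CPM per kb. For AKR1C1, AKR1C2, AKR1C3, TRIM16, PRDX1 and FTH1 the deposited counts were fractional in all 60 libraries, as RSEM gives where reads fit more than a single gene, so the levels of these 6 are less certain. The same limit holds for NQO1, AKR1B10 and NFE2L2, with fractional counts in 59 libraries each. It also touches CBR1 (51 libraries), MAFG (39), FTL (27) and GCLC (20).

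NRF2 and its MAF partner bind the antioxidant response element, whose core is TGACNNNGC. The 250 bases upstream of the RefSeq start (GRCh38.p14) were available for 29 of the 36 genes, and this core, read on both strands, occurred in 7 of them (24.1%), against 3830 of 35116 windows of all genes (10.9%). The 30 bases around each match are printed on the strand that reads the core, with the core in capitals, because GCLM, GPX2 and TXNRD1 among these 7 moved in different directions below.
CBR1: ccagctagccTGACTTTGCagaacccgcag
CYP4F11: cagctcagggTGACACAGCatgggcacagg
GCLM: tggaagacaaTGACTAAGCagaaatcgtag
GPX2: atccccaggaTGACTTAGCaaaaacaggtc
ME1: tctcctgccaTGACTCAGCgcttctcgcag
PGD: agcacctagaTGACATTGCcccggcgaggc
TXNRD1: acacgggctaTGACTTCGCtgttgtcaccg
They lie at chr21:36069854-36069883 (minus strand) for CBR1, chr19:15935005-15935034 (plus) for CYP4F11, chr1:93909446-93909475 (plus) for GCLM, chr14:64942849-64942878 (plus) for GPX2, chr6:83431169-83431198 (minus) for ME1, chr1:10398852-10398881 (minus) for PGD and chr12:104215670-104215699 (plus) for TXNRD1. The TXNRD1, CBR1, CYP4F11 and ME1 stretches lie upstream of the GENCODE 29 gene, whereas those of GPX2 and PGD lie inside its span and that of GCLM crosses its edge. The match in ME1, TGACTCAGC, is the form shared by 160 windows (0.456%) in all. With the looser TGANNNNGC the share was 15 of 29 (51.7%) of these genes against 35.2% of all windows. A match describes the letters of the window and not binding.

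Differences are given as log2 folds of CPM with their standard error, from a single quasi-likelihood model of the 57 libraries with replicates (edgeR), and a gene is said to have risen or fallen where its Benjamini-Hochberg adjusted p, taken over all tested genes of that comparison, was under 0.05. At the high dose against vehicle, 10 of the 36 genes changed with Aconiti (4 rose, 6 fell), 5 fell with Yijung, and 3 rose with Cimicifugae. With Aconiti this was 27.8% of the NRF2 genes, against 32.7% of all tested genes (17% rose, 15.7% fell). The Aconiti count was 9 to 15 with 1 library left out. The shares of all genes in those fits are not reported here, so this range is not set against all genes. With transcript length balance as a covariate it was 19 of 36, against 37.6% of all genes. With Yijung the share was 13.9% of the NRF2 genes, against 7.09% of all genes (3.33% fell). Those 5 calls came down to 1 without vehicle 3 (5.46% of all genes called), to 2 without vehicle 1, vehicle 2 or Yijung 1 (4.51%, 4.76% and 6.04%) and to 3 without Yijung 3 (7.99%). With Cimicifugae it was 8.33% of the NRF2 genes, against 1.96% of all genes (1.08% rose). Those 3 calls came down to HMOX1 alone without any 1 of vehicle 1, vehicle 2 or Cimicifugae 1 or 3 (0.849 to 1.13% of all genes called). None of the 36 passed with Citri, Bupleuri or Banhasasim, where 0.0463%, 0.712% and 0.185% of all genes did; at an unadjusted p under 0.05 the counts were 2, 6 and 1. The median log2 fold of the 36 was 0.003 with Aconiti, −0.075 with Yijung and 0.073 with Cimicifugae, against −0.005, 0.002 and 0.005 over all genes.

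**Figure D1:**
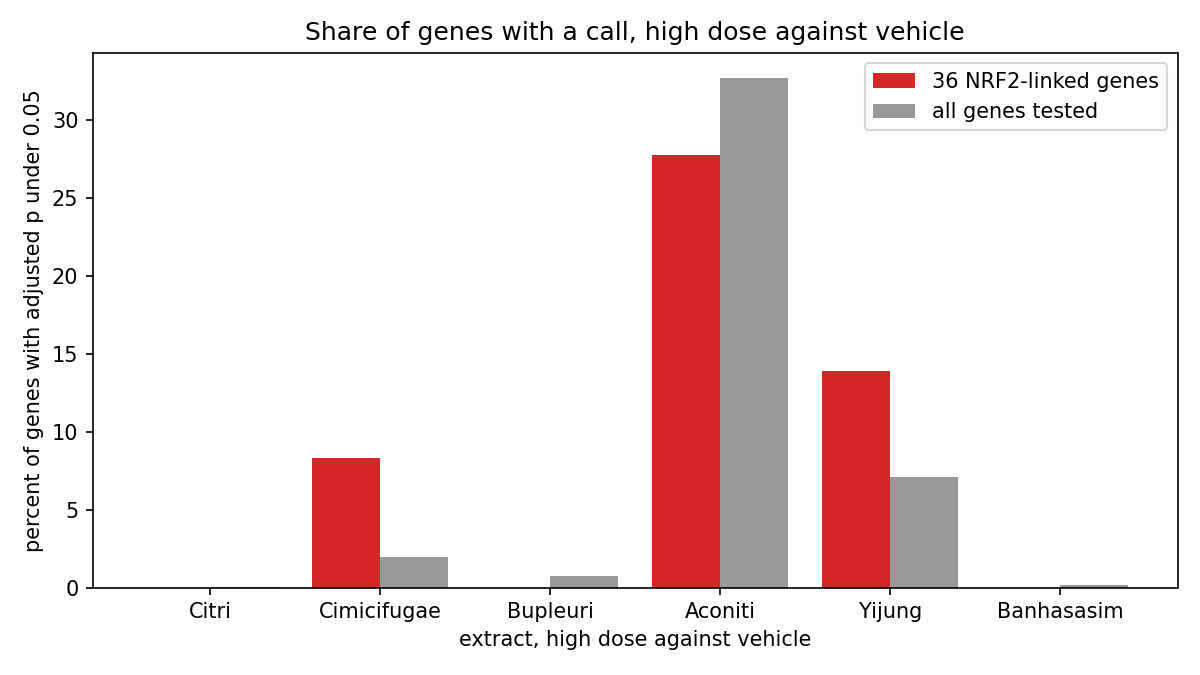
Percent of genes with an adjusted p under 0.05 at the high dose of each extract against vehicle (edgeR quasi-likelihood test, 3 libraries per group), for the 36 NRF2 targets and regulators (red) and for all 17268 tested genes (grey). With Aconiti the red bar (27.8%) is below the grey one (32.7%), and with Yijung and Cimicifugae it is above it. For Aconiti the order turns with transcript length balance as a covariate (19 of 36 genes, 37.6% of all). Its fits with 1 library left out are not set against all genes. For Yijung the order turns without vehicle 3 (1 of 36 genes, 5.46% of all) or Yijung 1 (2 of 36, 6.04%).

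At the medium dose, Yijung was the extract with calls: 1 of the 36 genes rose and 3 fell against vehicle, where 7.85% of all genes were called (4.01% rose, 3.83% fell), and without vehicle 3 these were 2 of 36 and 5.8%. The other 5 extracts had 0 of 36 at the medium dose, where the share of all genes called was 2.29% with Aconiti, 0.0347% with Cimicifugae, 0.0174% with Citri, and 0% with Bupleuri and with Banhasasim. Every extract had 0 of 36 at the low dose, where the share of all genes called was 0.0695% with Aconiti, 0.0116% with Cimicifugae and with Yijung, 0.00579% with Citri, and 0% with Bupleuri and with Banhasasim. Between 1 (Banhasasim) and 10 (Citri, whose library 1 is described below) of the 36 had an unadjusted p under 0.05 at the medium doses of those 5 extracts, and between 1 and 5 at the low doses.

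**Figure D2:**
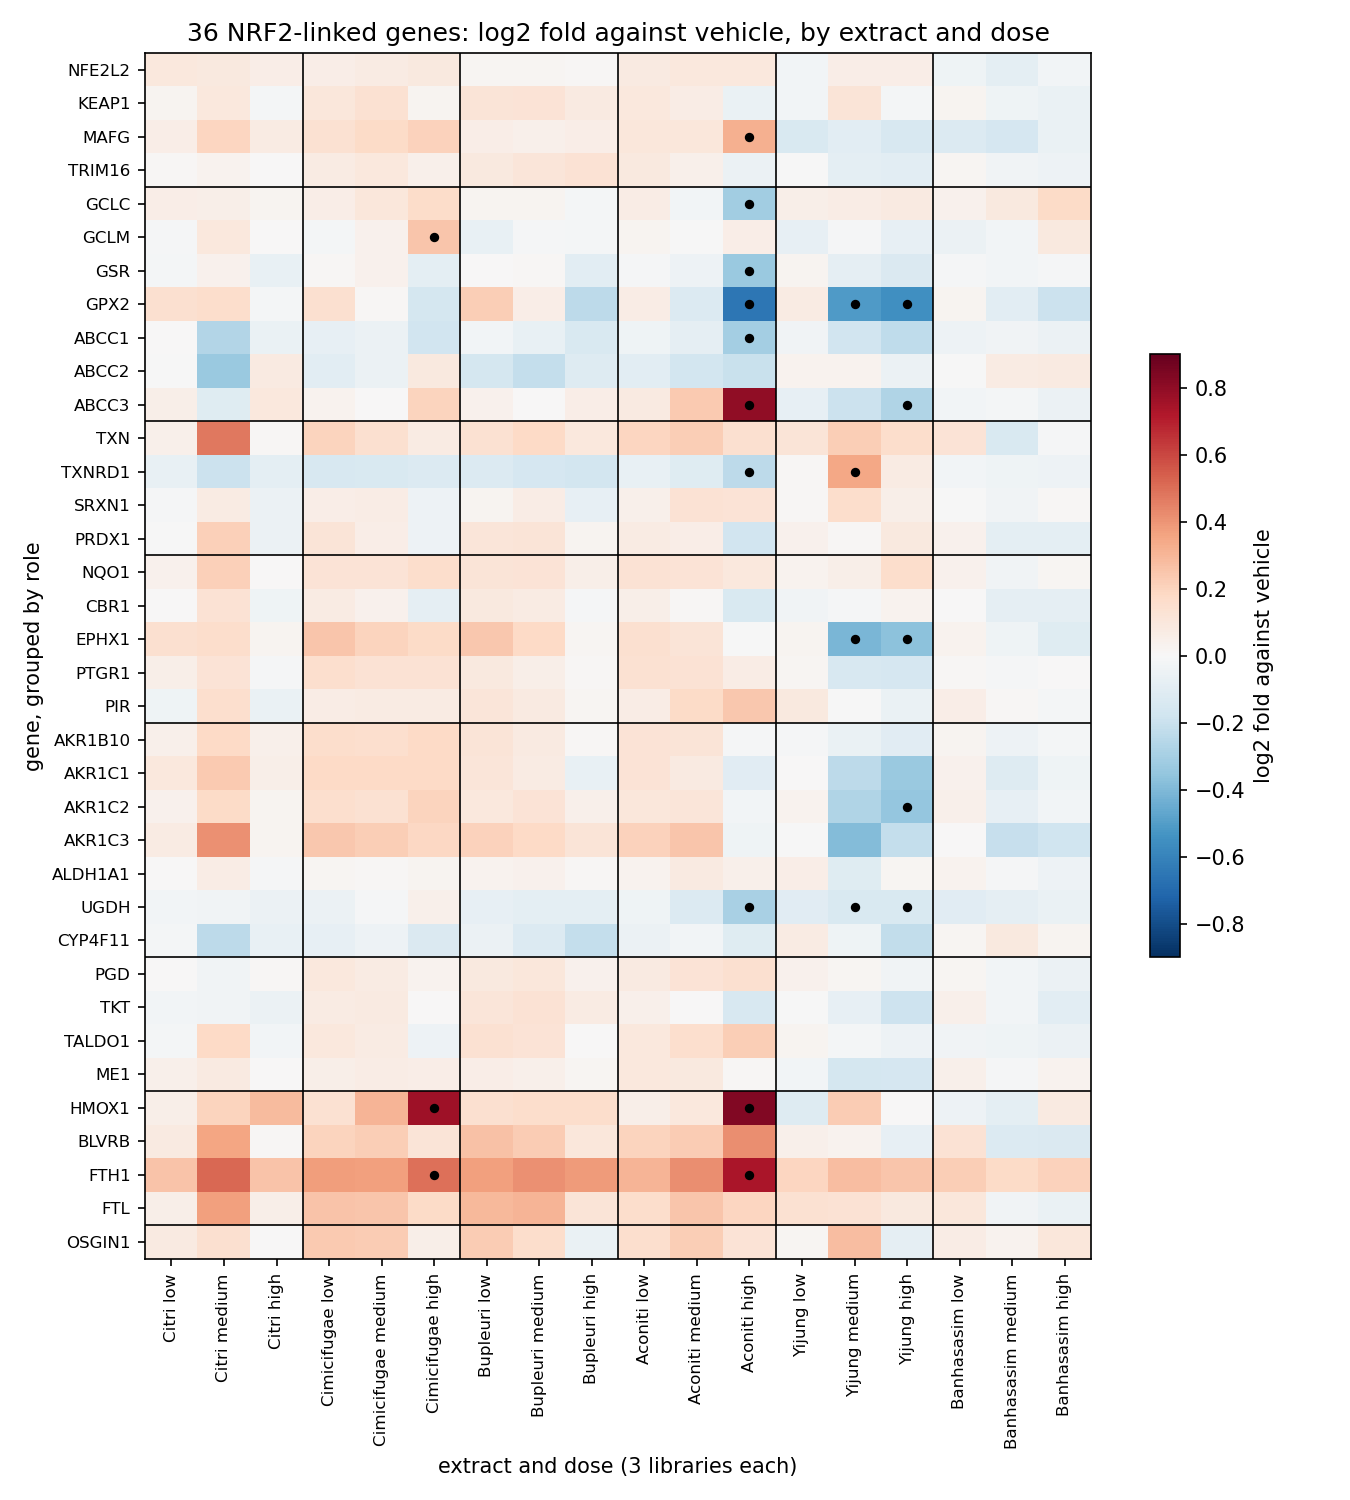
Log2 fold against vehicle (colour scale) of each of the 36 genes (rows, grouped by role) in 18 groups of 3 libraries (columns, low, medium and high dose of each extract), with a black dot where the adjusted p was under 0.05. The dots lie in the Cimicifugae high, Aconiti high, Yijung medium and Yijung high columns.

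Among the regulators, NFE2L2 and KEAP1 themselves kept close to their vehicle level. NFE2L2 had 127.8, 120.9 and 127.7 CPM in the Aconiti high-dose libraries, against 117.8, 121.2 and 113.8 CPM in vehicle libraries. One Aconiti library lay within the vehicle range and the other two above it, and the log2 fold was 0.09 ± 0.06, with an interval of −0.04 to 0.22 (95%, edgeR adjusted p = 0.274). Over the 18 extract groups its mean ran between 110.5 and 125.7 CPM, and that of KEAP1 between 76.56 and 87.6 CPM, and neither passed in any comparison with vehicle. These are transcript levels, while the KEAP1 pathway is known to act on the NRF2 protein.

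MAFG, the small MAF partner of NRF2 and itself an NRF2 target, rose with the high dose of Aconiti. It had 161.7, 179.7 and 163.7 CPM there, against 135, 132 and 137.3 CPM in vehicle libraries, and all 3 Aconiti libraries lay above all 3 vehicle libraries. The log2 fold was 0.32 ± 0.06 (edgeR adjusted p = 0.000113). It was 0.22 ± 0.06 against the low dose of Aconiti, at 144.7 ± 9.72 CPM (SD, n = 3), a call (adjusted p = 0.00988) that was lost without low-dose library 1 (0.0985) or high-dose library 2 (0.0708). TRIM16, an E3 ligase linked to NRF2 stability, passed in 1 comparison, between the high doses of Aconiti and Bupleuri (291.3 ± 24.4 against 331.7 ± 11.4 CPM, SD, n = 3 each; log2 fold −0.19 ± 0.06, edgeR adjusted p = 0.0292). This call was lost without any 1 of 4 libraries, Bupleuri 1 or 3 or Aconiti 1 or 3 (adjusted p = 0.0674 to 0.231).

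HMOX1 rose with the high doses of Cimicifugae and Aconiti. It encodes heme oxygenase 1, which splits heme into biliverdin, iron and carbon monoxide and is repressed by BACH1 as well as driven by NRF2. With Cimicifugae HMOX1 had 289.2, 291.4 and 265 CPM at the high dose, against 164.8, 158.6 and 176.2 CPM in vehicle libraries. With Aconiti it had 262.8, 316.3 and 312 CPM at the high dose, against the same vehicle libraries. In both cases the groups were far apart, and the log2 folds were 0.76 ± 0.09 (edgeR adjusted p = 5.29e-08) and 0.84 ± 0.09 (1.37e-10). These are bulk libraries, so a change in every cell and a larger change in fewer cells cannot be told apart.

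The doses of HMOX1 within an extract do not involve the vehicle libraries. Cimicifugae gave 173.7, 203.7 and 171.2 CPM at the low dose and 214.5, 215.5 and 187.9 CPM at the medium dose, so the high-dose libraries lay above both and the low and medium doses overlapped. HMOX1 rose at the high dose over the low dose (log2 fold 0.62 ± 0.09, edgeR adjusted p = 5.76e-06) and over the medium dose (0.45 ± 0.08, adjusted p = 0.00368), and GCLM was the other member to rise over the low dose, where 1.34% of all genes were called and 0.625% rose. Over the medium dose HMOX1 was the 1 member called, with 0.226% of all genes called and 0.0811% higher, and that call was lost without medium-dose library 3 (adjusted p = 0.069). Fitted on the 6 libraries alone, the adjusted p was 0.122 over the low dose and 0.0688 over the medium dose.

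Aconiti gave 175.3, 161.2 and 182.5 CPM of HMOX1 at the low dose and 171.5, 179.6 and 182.9 CPM at the medium dose. Both doses overlapped vehicle, and the high dose stood alone above them, by 0.78 ± 0.09 log2 units over the low dose (edgeR adjusted p = 1.1e-09) and by 0.74 ± 0.09 over the medium dose (adjusted p = 1.07e-08). With Citri, HMOX1 had 193.8, 211.1 and 204.9 CPM at the high dose, against 164.8, 158.6 and 176.2 CPM in vehicle libraries. These groups did not overlap either, but the log2 fold of 0.29 ± 0.09 did not pass (edgeR adjusted p = 0.553; interval 0.12 to 0.46). Between the high doses of the same set, HMOX1 was higher with Cimicifugae than with Citri by 0.47 ± 0.08 log2 units (adjusted p = 0.000802). HMOX1 and GCLM were the 2 of 36 genes called there, both higher with Cimicifugae, with 0.689% of all genes called and 0.261% higher.

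With Yijung, HMOX1 was highest at the medium dose. Its libraries had 161.4, 146.2 and 152.4 CPM at the low dose, 212.4, 183.9 and 189.6 CPM at the medium dose, and 177.9, 174.2 and 149.2 CPM at the high dose. The medium-dose libraries lay above all other Yijung libraries, and HMOX1 rose at the medium over the low dose by 0.35 ± 0.09 log2 units (edgeR adjusted p = 0.00552; 0.0667 without medium-dose library 1). In that comparison HMOX1 and TXNRD1 rose and GPX2 and EPHX1 fell, 4 of the 36 genes, with 6.31% of all genes called; GPX2 was lost without low-dose library 1 (0.0504). Against vehicle the medium dose missed the threshold (0.23 ± 0.09, adjusted p = 0.0916).

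**Figure D3:**
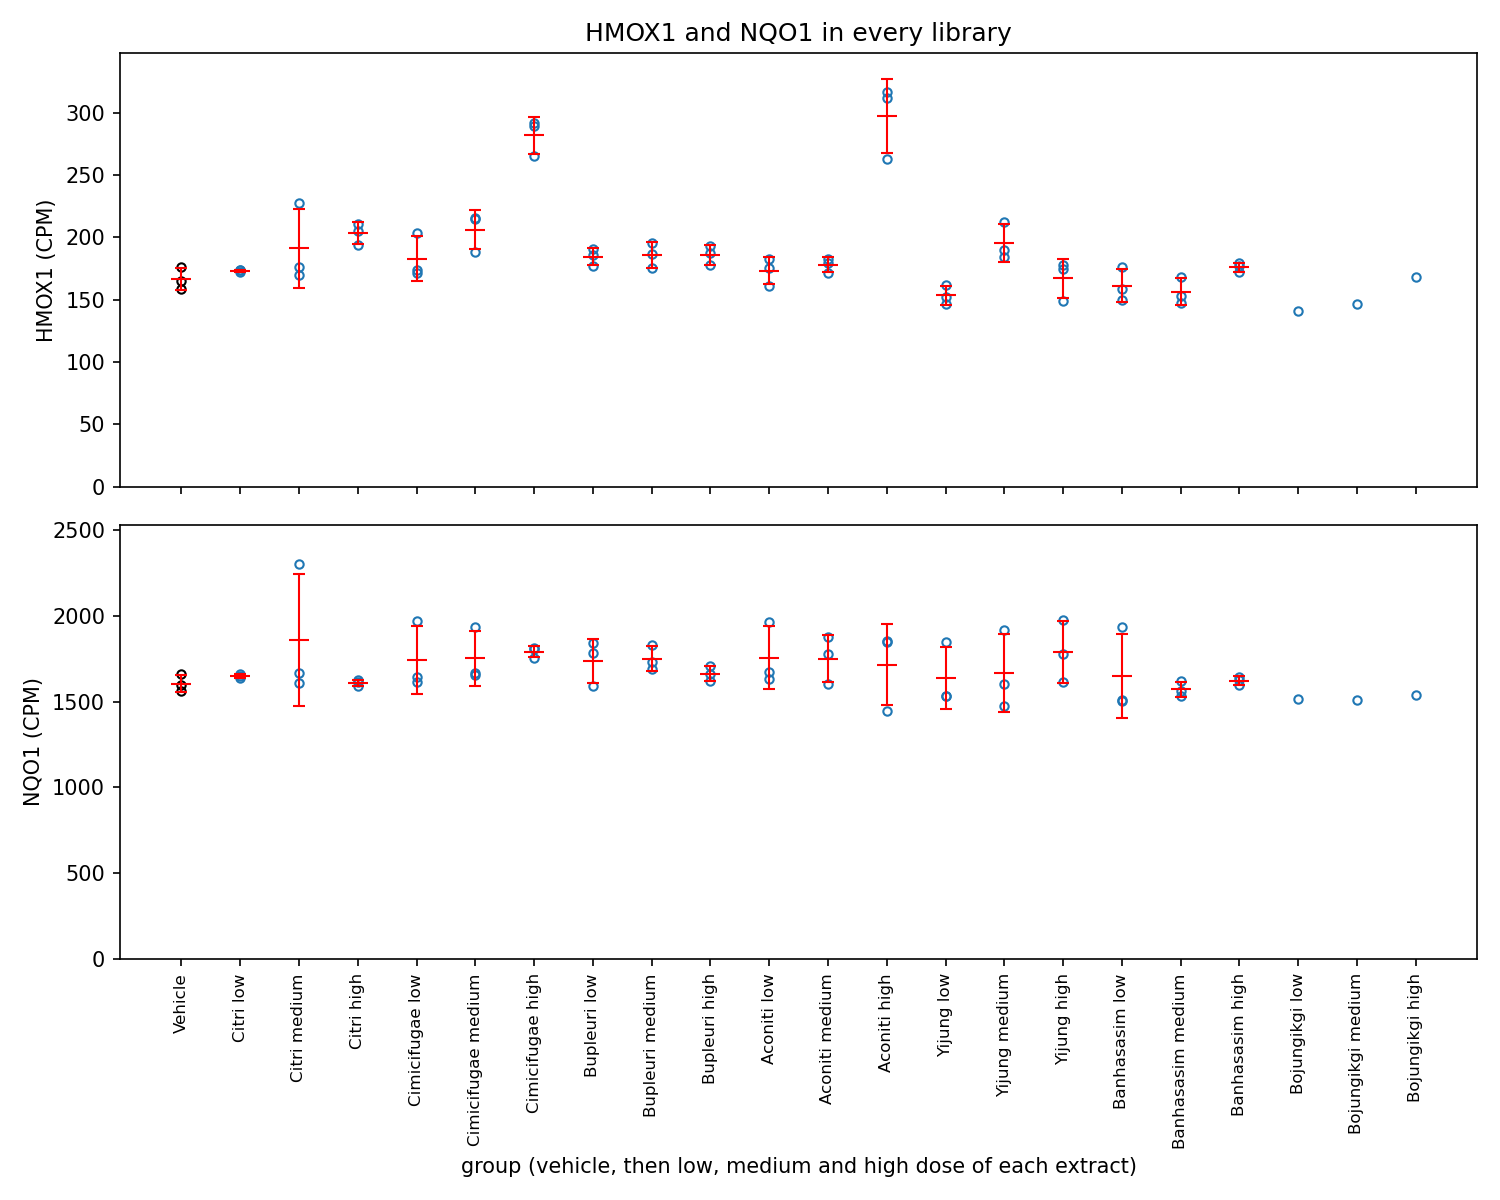
CPM of HMOX1 (top) and NQO1 (bottom) in every library (open circles; vehicle in black, extracts in blue) with the mean and SD of each group of 3 in red; Bojungikgi groups have 1 library and no error bar. HMOX1 is highest in the Aconiti (297 ± 29.7 CPM) and Cimicifugae (281.8 ± 14.6 CPM) high-dose groups, against 166.5 ± 8.9 CPM in vehicle, while the means of NQO1 in groups of 3 stay between 1571 and 1859 CPM.

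NQO1 passed with neither extract that raised HMOX1. It had 1814, 1806 and 1756 CPM at the high dose of Cimicifugae and 1443, 1852 and 1849 CPM at the high dose of Aconiti, against 1559, 1596 and 1660 CPM in vehicle libraries. The Cimicifugae libraries lay above vehicle and the Aconiti libraries on both sides of it, and neither log2 fold passed (0.16 ± 0.11, edgeR adjusted p = 0.644, and 0.10 ± 0.11, adjusted p = 0.538). With only the 6 compared libraries fitted, the Cimicifugae fold of 0.16 passed (adjusted p = 0.0122), as did that over the high dose of Citri (0.15, adjusted p = 0.00471). In the shared model NQO1 passed in no comparison with vehicle, and its highest group mean was 1.18 times its lowest, against 1.94 times for HMOX1.

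Of the other genes of heme and iron, FTH1 rose with both extracts that raised HMOX1. FTH1 had 4652, 4748 and 4669 CPM at the high dose of Cimicifugae and 4625, 5996 and 6033 CPM at the high dose of Aconiti, against 2818, 3326 and 3854 CPM in vehicle libraries. Neither extract overlapped vehicle, with log2 folds of 0.49 ± 0.13 (edgeR adjusted p = 0.0228) and 0.74 ± 0.13 (adjusted p = 9.7e-06). Vehicle was the lowest of all 19 groups for FTH1 and its libraries were spread widely. The high dose of Cimicifugae was 0.12 ± 0.12 log2 units over its own low dose (adjusted p = 0.757), and that of Aconiti 0.43 ± 0.12 over its own (adjusted p = 0.00884; 0.0519 without low-dose library 1). The Cimicifugae call against vehicle was lost without any 1 of vehicle 1, vehicle 2 or the 3 Cimicifugae libraries (adjusted p = 0.0667 to 0.247). FTL and BLVRB, a biliverdin reductase, passed in no comparison with vehicle, BLVRB coming nearest with Aconiti at the high dose (134.2 ± 26.9 against 100.5 ± 7.23 CPM, SD, n = 3 each; edgeR adjusted p = 0.0578).

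The genes of glutathione synthesis and recycling did not move as one. GCLC and GCLM, the catalytic and modifier subunits of glutamate-cysteine ligase, are joint NRF2 targets. GCLC had 233.7, 210.2 and 244.8 CPM at the high dose of Aconiti, against 280.6, 284.7 and 291.8 CPM in vehicle libraries. Every Aconiti library was below every vehicle library, and GCLC fell by 0.32 ± 0.05 on the log2 scale (edgeR adjusted p = 3.18e-06). Within Aconiti the low dose had 293.9, 303.7 and 301 CPM and the medium dose 283.8, 279 and 281.3 CPM, and no library of either higher dose reached the low-dose range. The log2 fold over the low dose was −0.38 ± 0.05 at the high dose (edgeR adjusted p = 9.15e-08) and −0.09 ± 0.05 at the medium dose, which did not pass (adjusted p = 1). GCLM did not pass with Aconiti, with 296.1, 297.9 and 323 CPM at the high dose, against 288.2, 286.3 and 304.2 CPM in vehicle libraries, which overlap.

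With Cimicifugae it was GCLM that passed. GCLM had 352.4, 341.7 and 351.7 CPM at the high dose, against 288.2, 286.3 and 304.2 CPM in vehicle libraries, well apart, and rose by 0.25 ± 0.06 log2 units (edgeR adjusted p = 0.0119). It also rose over the low dose of Cimicifugae (0.27 ± 0.06, adjusted p = 0.00849) and over the high dose of Citri (0.25 ± 0.06, adjusted p = 0.0262). These are small differences: the first call was lost without vehicle 1, vehicle 2 or Cimicifugae 1 or 3 (adjusted p = 0.0532 to 0.0842), the second without Cimicifugae high-dose 1 or 3 or low-dose 2 (0.0501 to 0.0553) and the third without any 1 of its 6 libraries (0.0559 to 0.194). GCLC had 324.9, 316.9 and 321.5 CPM at the high dose of Cimicifugae, all above vehicle, without passing (0.17 ± 0.05, adjusted p = 0.0688). It passed once library 1 of the Citri medium dose, which feeds the shared error estimate, was left out (adjusted p = 0.0434), as did MAFG (0.0231).

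GSR, the reductase that returns oxidised glutathione to its reduced form, had 296.3, 334.2 and 330.2 CPM at the high dose of Aconiti, against 400.7, 399.5 and 412.6 CPM in vehicle libraries. The gap between the groups was wide, and GSR fell by 0.34 ± 0.04 on the log2 scale (edgeR adjusted p = 4.42e-08), and by 0.33 ± 0.04 below the low dose of Aconiti (adjusted p = 1.25e-07). With Yijung it had 365.2, 383.2 and 359.1 CPM at the high dose, against 421.6, 403.7 and 410.8 CPM at its low dose, apart but closer (log2 fold −0.16 ± 0.04, adjusted p = 0.0196). That call was lost without high-dose library 1 or 3 or low-dose library 1 or 3 (adjusted p = 0.0541 to 0.0955).

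GPX2, a selenium-dependent glutathione peroxidase typical of epithelia, fell with 2 extracts. It had 108.8, 159.6 and 158 CPM at the high dose of Aconiti and 163.2, 163.2 and 131.4 CPM at the high dose of Yijung, against 218.1, 208.4 and 243.8 CPM in vehicle libraries. Neither overlapped vehicle, with log2 folds of −0.65 ± 0.13 (edgeR adjusted p = 0.000149) and −0.55 ± 0.13 (adjusted p = 0.00492). Both also fell below their own low dose, by 0.72 ± 0.13 with Aconiti (adjusted p = 5.12e-05) and by 0.62 ± 0.13 with Yijung (adjusted p = 0.0014). At the medium dose of Yijung GPX2 had 189.2, 137.8 and 142.3 CPM, below vehicle (log2 fold −0.51 ± 0.13, adjusted p = 0.0083), a call lost without vehicle 3 or Yijung medium-dose 2 or 3 (adjusted p = 0.0566 to 0.0788). Library 1 of the high dose of Aconiti was the lowest of all for GPX2, and without it the difference between the high and medium doses of Aconiti went to an adjusted p of 0.0698.

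The glutathione-conjugate exporters of the ABCC family did not move together. ABCC3 had 652.3, 647.3 and 608.8 CPM at the high dose of Aconiti, against 361.8, 361.1 and 376.2 CPM in vehicle libraries, and the lowest Aconiti library was far above the highest vehicle library. The log2 fold was 0.80 ± 0.09 (edgeR adjusted p = 5.78e-10), and ABCC3 had the widest range of the 36 genes, its highest group mean being 2.09 times its lowest. Its Aconiti libraries had 397.9, 407.1 and 355 CPM at the low dose and 447, 429.3 and 415.5 CPM at the medium dose, and the high dose was above the medium dose by 0.56 ± 0.09 log2 units (adjusted p = 4.06e-06). With Yijung at the high dose ABCC3 had 300.8, 281 and 330 CPM, all below vehicle, and fell by 0.27 ± 0.09 (adjusted p = 0.0445), a call lost without any 1 of the 3 vehicle libraries or Yijung 1 or 2 (adjusted p = 0.0936 to 0.279). ABCC1 fell with Aconiti at the high dose (277.2 ± 22.5 against 341.9 ± 10.5 CPM in vehicle, SD, n = 3 each; log2 fold −0.30 ± 0.10, adjusted p = 0.0187), also a call that needed vehicle 1 (0.0694 without it) and Aconiti high-dose 3 (0.16 without it). ABCC2 passed in no comparison with vehicle.

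**Figure D4:**
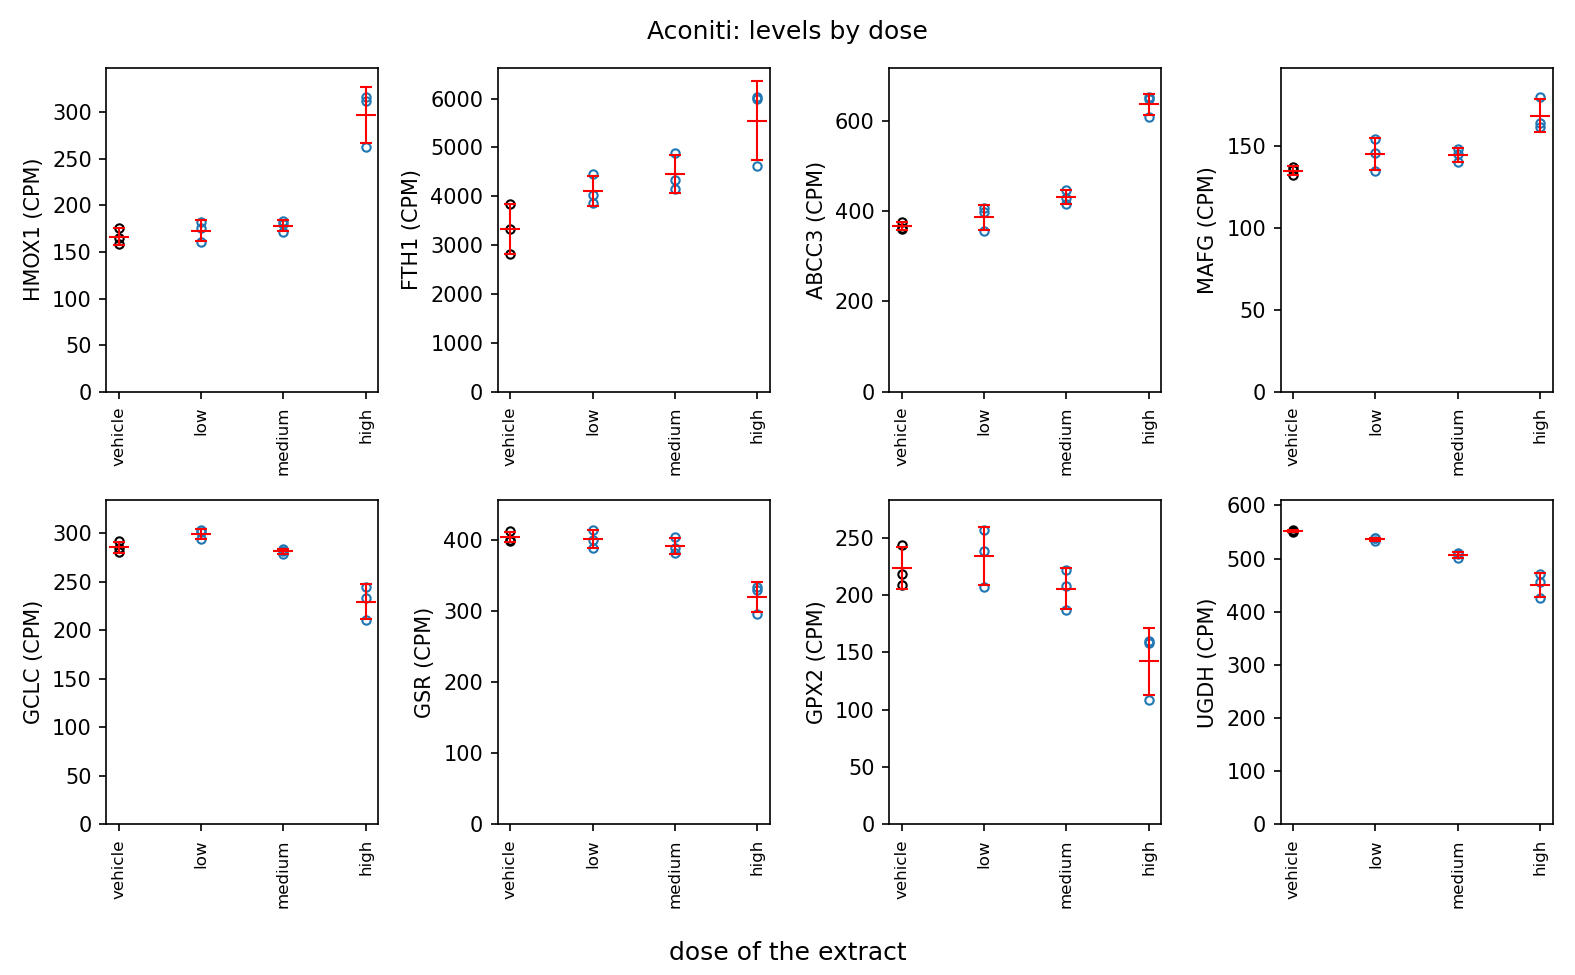
CPM of 8 genes in vehicle and at the low, medium and high dose of Aconiti, with 1 open circle per library and the mean and SD of 3 libraries in red; axes start at 0. HMOX1, FTH1, ABCC3 and MAFG are highest and GCLC, GSR, GPX2 and UGDH lowest at the high dose.

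In the thioredoxin branch the selenoprotein TXNRD1, which reduces thioredoxin, was the 1 of 4 genes with calls against vehicle, in opposite directions. It had 2869, 2533 and 2400 CPM at the medium dose of Yijung, against 2063, 2073 and 2006 CPM in vehicle libraries. The groups were apart, and TXNRD1 rose by 0.34 ± 0.07 log2 units (edgeR adjusted p = 0.00099; 0.0546 when only these 6 libraries were fitted). It also rose over the low dose of Yijung, at 2266, 1979 and 1935 CPM (0.34 ± 0.07, adjusted p = 0.00162), while the high dose, at 2163, 2151 and 2166 CPM, lay between and did not pass against vehicle (0.08 ± 0.07, adjusted p = 0.636). With Aconiti at the high dose TXNRD1 had 1880, 1610 and 1723 CPM, all below vehicle, and fell by 0.24 ± 0.07 (adjusted p = 0.0109; 0.113 without Aconiti library 2).

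TXN (thioredoxin), PRDX1 (a peroxiredoxin) and SRXN1 (sulfiredoxin, which repairs oxidised peroxiredoxins) passed in no comparison with vehicle. TXN showed how a single library can dominate a group: it had 1223, 615.1 and 607.3 CPM at the medium dose of Citri, against 547.3, 604.1 and 607.8 CPM in vehicle libraries. Library 1 alone was high, the one whose balance of long to short transcripts stood apart, and TXN also reached 824 CPM in library 2 of the Cimicifugae low dose, whose balance of 3.687 was the next lowest. TXN is a short transcript; the part of this balance in its level was not tested. The medium dose of Citri had 0 of 36 genes called as deposited and 0 without library 1, but 10 without library 2 and 7 without library 3, which leave library 1 as 1 of the pair. Of all genes, 13.2% were called without library 2 and 12.7% without library 3.

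SRXN1 passed once, higher with the high dose of Aconiti than with that of Bupleuri (586.6 ± 38 against 511.2 ± 20.4 CPM, SD, n = 3 each; log2 fold 0.20 ± 0.06, edgeR adjusted p = 0.0141). This call was lost without Bupleuri library 2 (0.0816) or Aconiti library 2 (0.069).

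Of the 5 genes of quinone, epoxide and enone metabolism (NQO1, CBR1, EPHX1, PTGR1 and PIR), EPHX1, microsomal epoxide hydrolase, was the 1 with calls against vehicle, all of them with Yijung. It had 132.5, 138.1 and 123.9 CPM at the high dose and 139.5, 119.7 and 123.9 CPM at the medium dose, against 165.9, 160.7 and 183.9 CPM in vehicle libraries. No Yijung library at these doses reached the lowest vehicle library. EPHX1 fell by 0.37 ± 0.10 (edgeR adjusted p = 0.00876) at the high dose and by 0.41 ± 0.10 (adjusted p = 0.00265) at the medium dose, and the first call was lost without vehicle 3 (0.0756). At the low dose of Yijung it had 182.9, 162.6 and 173.7 CPM, like vehicle, and the high dose was below it by 0.40 ± 0.10 (adjusted p = 0.00575).

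The aldo-keto reductases AKR1C1, AKR1C2 and AKR1C3 are neighbours on chromosome 10 that reduce carbonyls and steroids. With the high dose of Yijung AKR1C2 passed and AKR1C1 and AKR1C3 did not. The folds of AKR1C1 and AKR1C2 were similar, and the genes were not tested against each other. AKR1C2 had 1820, 2005 and 1767 CPM at the high dose, against 2327, 2326 and 2479 CPM in vehicle libraries, with no overlap, and fell by 0.35 ± 0.10 on the log2 scale (edgeR adjusted p = 0.0245). The call was lost without any 1 of the 3 vehicle libraries or Yijung 1 or 3 (adjusted p = 0.0549 to 0.1). AKR1C1 had 261.5, 286.8 and 260.5 CPM at the high dose, against 321.1, 334.7 and 364.3 CPM in vehicle libraries (−0.33 ± 0.12, adjusted p = 0.0799). AKR1C3 had 792.6, 965.5 and 652.3 CPM at the high dose, against 932.5 ± 41.1 CPM in vehicle (SD, n = 3), which overlap (−0.21 ± 0.17, edgeR adjusted p = 0.562). At the medium dose it had −0.39 ± 0.17 (adjusted p = 0.19), and at the low dose all 3 genes overlapped vehicle. The counts of all 3 are fractional, so reads may have been divided between them.

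UGDH, which makes the UDP-glucuronic acid used for conjugation, was the most even of the genes that fell. It had 455.9, 425.3 and 470.6 CPM at the high dose of Aconiti, against 549.1, 554.5 and 551.6 CPM in vehicle libraries. The vehicle libraries differed by only a few CPM and all Aconiti libraries lay far below them (log2 fold −0.29 ± 0.04, edgeR adjusted p = 8.4e-08; −0.25 ± 0.04 against the low dose of Aconiti, adjusted p = 2.47e-06). With Yijung it averaged 502.6 ± 14.4 CPM at the high dose and 500.8 ± 3.5 CPM at the medium dose, against 551.8 ± 2.7 CPM in vehicle (SD, n = 3 each; log2 folds −0.13 ± 0.04 and −0.14 ± 0.04, adjusted p = 0.0229 and 0.0158). Those Yijung calls were lost without any 1 of the 3 vehicle libraries or Yijung 1 or 3 at the high dose (0.0648 to 0.0864), and without vehicle 2, vehicle 3 or Yijung 1 at the medium dose (0.0514 to 0.0619). The low dose of Yijung was already at 534.4, 504.5 and 505.9 CPM, and the high dose differed from it by −0.03 ± 0.04 (adjusted p = 0.775). AKR1B10, which reduces retinal and lipid aldehydes, ALDH1A1 and the fatty-acid hydroxylase CYP4F11 passed in no comparison with vehicle; AKR1B10 group means ran between 2667 and 3252 CPM, against 2867 ± 206 CPM in vehicle (SD, n = 3).

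The 4 NADPH genes, PGD (phosphogluconate dehydrogenase), TKT and TALDO1 (the carbon-shuffling enzymes of the pentose phosphate pathway) and ME1 (malic enzyme), passed in no comparison with vehicle. TKT was lower with the high dose of Aconiti than with that of Bupleuri (1518 ± 172 against 1762 ± 52.8 CPM, SD, n = 3 each; log2 fold −0.21 ± 0.07, edgeR adjusted p = 0.0318), a call lost without Bupleuri 1 or 3 or Aconiti 1 or 3 (0.0891 to 0.249). ME1 had 154.6, 161.8 and 163.7 CPM at the high dose of Yijung, against 179.9, 183.4 and 182.5 CPM at the high dose of Banhasasim. These did not overlap, and ME1 was the 1 of 36 genes called between these mixtures of the same set, where 4.79% of all genes were called and 2.19% were lower with Yijung (−0.19 ± 0.05, adjusted p = 0.0282; 0.0592 to 0.112 without Yijung 1 or 2 or any 1 of the Banhasasim libraries). OSGIN1, an oxidative-stress-induced growth inhibitor, passed nowhere against vehicle, with its highest mean of 119 CPM at the medium dose of Yijung.

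**Figure D5:**
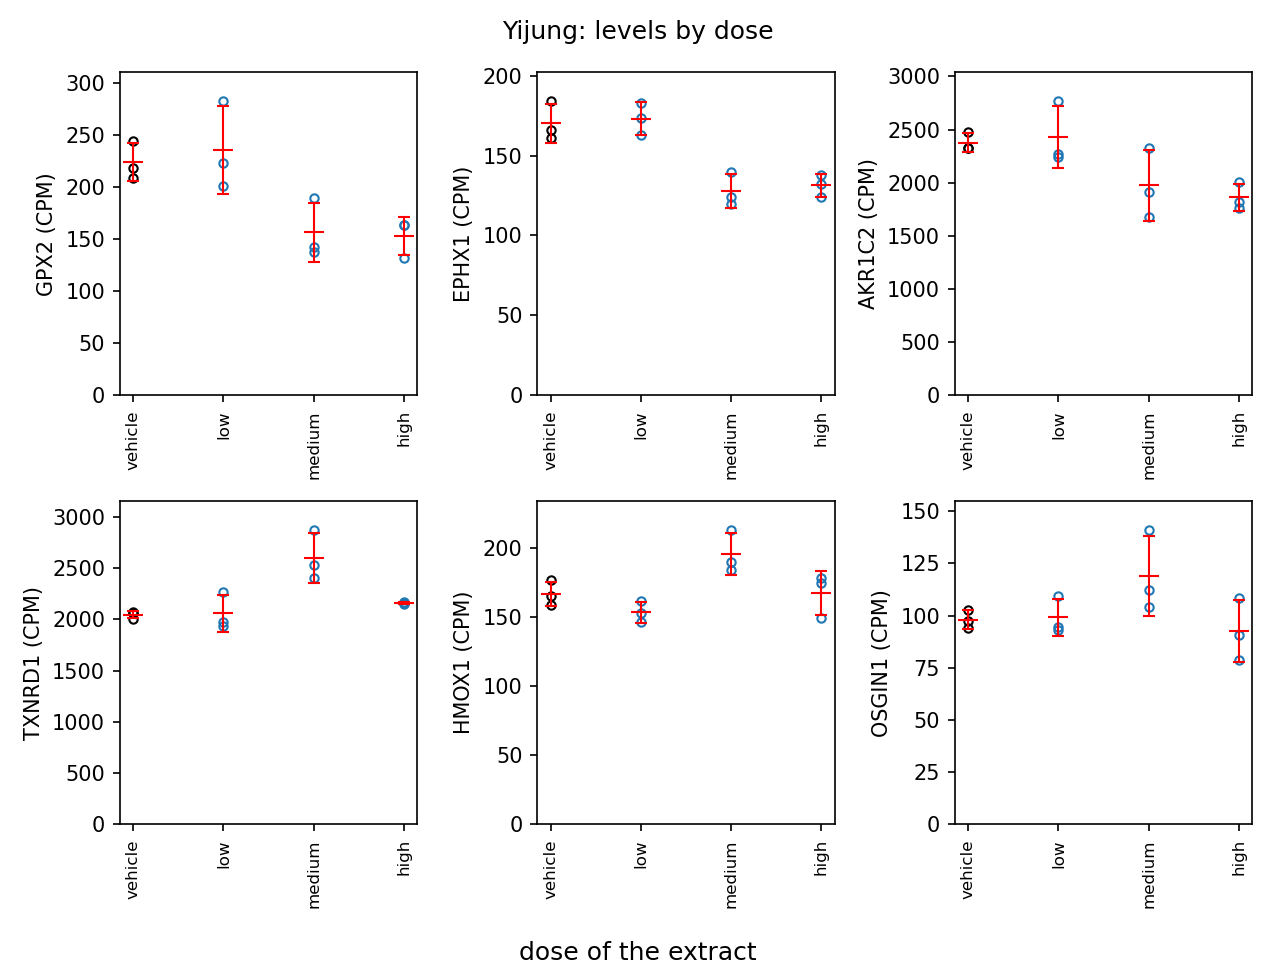
CPM of 6 genes in vehicle and at the low, medium and high dose of Yijung, with 1 open circle per library and the mean and SD of 3 libraries in red; axes start at 0. GPX2 and EPHX1 are lower at the medium and high doses, while TXNRD1 (2601 ± 242 CPM) and HMOX1 (195.3 ± 15.1 CPM) are highest at the medium dose.

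Within an extract, the high dose of Aconiti changed 8 of the 36 genes against its low dose (MAFG, ABCC3, HMOX1 and FTH1 rose, and GCLC, GSR, GPX2 and UGDH fell), with 22.7% of all genes called. Against its medium dose 7 changed, the same without FTH1, with 12.5% of all genes called, MAFG being lost without medium-dose library 1 (0.063) or high-dose library 2 (0.112) and UGDH without high-dose library 2 (0.0814). The high dose of Yijung lowered 4 (GSR, GPX2, EPHX1 and AKR1C2) against its low dose, with 4.93% of all genes called and 2.29% lower. These came down to 2 without high-dose library 1 or 3 or low-dose library 1 (4.02 to 4.75% of all genes), the AKR1C2 call being lost without high-dose library 1 or 3 or low-dose library 1 (adjusted p = 0.0649 to 0.146). It changed 0 against its medium dose, with 1.08%; 4 had an unadjusted p under 0.05 there. The medium against the low dose gave 0 of 36 for Aconiti (0.527% of all genes) and 0 for Cimicifugae (0.0116%). At an unadjusted p under 0.05 each had 1 of the 36, with 897 and 393 of all tested genes. Citri, Bupleuri and Banhasasim had 0 of 36 called between any of their doses, and 0 to 10 of the 36 had an unadjusted p under 0.05. The high against the low dose called 0.353% of all genes for Bupleuri, 0.127% for Banhasasim and 0.0232% for Citri, the high against the medium dose 0.11%, 0.0579% and 0.0174% in the same order, and the medium against the low dose 0%, 0% and 0.00579%. Counted without a test, all 3 high-dose libraries lay above or below all 3 low-dose libraries for 10 of the 36 genes with Aconiti (4 above, 6 below), where 29.7% of all genes were apart, and for 10 with Yijung (all below; 17.7%). The other extracts had 9 such genes with Cimicifugae (4 above, 5 below; 19.2%), 8 with Citri (1 above, 7 below; 13.7%), 6 with Bupleuri (all below; 12.7%) and 4 with Banhasasim (3 above, 1 below; 11%). Scaled by total counts in place of TMM, the split with Aconiti was 2 above and 20 below, where 9.1% of all genes were above and 25.5% below. It was 5 above and 4 below with Cimicifugae (13% and 6.71% of all genes), 1 and 3 with Citri (7.33% and 5.81%), 1 and 4 with Bupleuri (7.54% and 4.95%), 0 and 10 with Yijung (7.84% and 9.22%), and 4 and 0 with Banhasasim (7.71% and 3.93%). For Aconiti, this other scaling, applied to the folds after the values were seen, lowered the median of all genes by 0.114 log2 units against vehicle, by 0.104 against the low dose and by 0.116 against Bupleuri, and none of its called members changed sign.

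Aconiti and Bupleuri share a set label and can be compared without vehicle. At the high doses, which are 360 µg/mL for Aconiti and 500 µg/mL for Bupleuri, 11 of the 36 genes differed, with 23.1% of all genes called (7 and 17.6% without Bupleuri 3). MAFG, ABCC3, SRXN1, HMOX1 and FTH1 were higher with Aconiti, and TRIM16, GCLC, GSR, GPX2, UGDH and TKT were lower. HMOX1 stood at 297 ± 29.7 CPM with Aconiti, against 186 ± 7.82 CPM with Bupleuri, and ABCC3 at 636.1 ± 23.8 CPM, against 381.5 ± 14.8 CPM (SD, n = 3 each), with log2 folds of 0.68 ± 0.09 (edgeR adjusted p = 3.39e-08) and 0.74 ± 0.09 (adjusted p = 4.94e-09). The FTH1 call was lost without Aconiti 2 or 3 or any 1 of the Bupleuri libraries (adjusted p = 0.0608 to 0.118), and that of GPX2 without Aconiti 1 (0.2) or Bupleuri 3 (0.0666). The doses differ, so these values stand side by side for the extracts as given.

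The change from the low to the high dose was also compared between these extracts as an interaction. HMOX1 (0.77 ± 0.12, edgeR adjusted p = 1e-05) and ABCC3 (0.70 ± 0.12, adjusted p = 5.19e-05) rose more with Aconiti than with Bupleuri. GCLC (−0.34 ± 0.07, adjusted p = 0.000842), UGDH (−0.24 ± 0.06, adjusted p = 0.0026) and GSR (−0.23 ± 0.06, adjusted p = 0.012) fell more, GSR losing its call without Aconiti high-dose 1, Aconiti low-dose 3 or Bupleuri low-dose 2 (0.0562 to 0.0774). These 5 stand beside 9.95% of all genes. Fitted on the compared libraries alone, HMOX1 and ABCC3 kept their calls and GCLC, UGDH and GSR lost theirs (6.06% of all genes called). The same interaction called 0 of 36 for Cimicifugae against Citri (0.0579% of all genes; 4 with an unadjusted p under 0.05) and 0 of 36 for Yijung against Banhasasim (1.31%; 4).

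Bojungikgi had a single library per dose, so its values carry no replicate check. A gene was counted where it differed from the vehicle mean by 0.5 or more on the log2(CPM + 1) scale and also lay outside the vehicle range. None of the 36 genes met this at the low, medium or high dose, where 1.07%, 1.01% and 0.886% of all genes did. With a pseudocount of 0.5 these shares were 2.69%, 3.12% and 2.56%, and with 5 they were 0.22%, 0.151% and 0.168%, with 0 of 36 under each. HMOX1 had 140.6, 146.2 and 168.2 CPM at the low, medium and high dose, and NQO1 1515, 1508 and 1536 CPM, so the NQO1 values lay below the vehicle range of 1559 to 1660 CPM, and the HMOX1 values lay below the vehicle range of 158.6 to 176.2 CPM at the low and medium dose and within it at the high dose.

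Other genes of the NRF2 pathway and its metabolism, kept as 4 further lists, were followed at the doses with calls. Of 11 further regulators, 4 rose and 2 fell with the high dose of Aconiti (17% and 15.7% of all genes). MAFF, another small MAF, had 10.68 ± 0.417 CPM, against 4.872 ± 0.294 CPM in vehicle (SD, n = 3 each; log2 fold 1.13, edgeR adjusted p = 8.45e-10). SQSTM1, the autophagy receptor that sequesters KEAP1, had 1339 ± 113 CPM, against 827.6 ± 40.6 CPM in vehicle (0.69, adjusted p = 7.9e-09), NFE2L1 rose by 0.45 and CUL3 fell by 0.36. MAFF and SQSTM1 rose with Yijung too, by 0.83 and 0.73 at the medium dose (2 of 11 rose, 0 fell; 7.85% of all genes called) and by 0.74 and 0.26 at the high dose, where MAFK fell by 0.72 (2 rose, 1 fell; 7.09%). MAFK was the 1 of 11 to fall with the high dose of Cimicifugae (139.5 ± 8.76 against 188.6 ± 2.72 CPM in vehicle, SD, n = 3 each; −0.43, adjusted p = 2.25e-06). Of all genes, 1.96% were called there.

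Of 28 further genes of glutathione and peroxide metabolism, 9 rose and 1 fell with the high dose of Aconiti, where 17% of all genes rose and 15.7% fell. In both directions together, 32.7% of all genes were called there. Among those that rose were GSTA4 (0.61), GPX1 (0.60), PRDX5 (0.59) and GPX4 (0.46). The high dose of Cimicifugae had 0 that rose and 2 that fell, GPX3 (−0.66) and GPX1 (−0.58), with 1.96% of all genes called. Yijung had 0 of 28 at the high dose, with 7.09% of all genes called. Of 20 further genes of heme and iron, 3 rose and 0 fell with the high dose of Cimicifugae (1.96% of all genes called), namely SLC48A1, a heme transporter (64.57 ± 1.35 against 48.18 ± 2.54 CPM in vehicle, SD, n = 3 each; 0.42, edgeR adjusted p = 3.2e-05), SLC40A1, the iron exporter ferroportin (0.40), and FECH, ferrochelatase (0.26). With Aconiti 8 rose and 7 fell (32.7% of all genes called), with SLC48A1 (0.57) and PPOX (0.52) among the higher and FLVCR1 (−0.56) and IREB2 (−0.55) among the lower. With Yijung 0 rose and 3 fell at the high dose (7.09% of all genes called), ABCB6 (−0.44), SLC40A1 (−0.42) and FLVCR1 (−0.32), and 0 rose and 3 fell at the medium dose (7.85%), led by SLC40A1 (−0.56). Of 10 further NADPH genes, 4 rose and 2 fell with Aconiti (32.7% of all genes called), led by PGLS (0.88) and IDH1 (0.44). With the high dose of Yijung 1 rose, ME2 (0.20; 7.09% of all genes called), and 0 changed with Cimicifugae (1.96%).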

How the data were processed

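Polyadenylated RNA of A549 cells was read as 100 bp pairs, per the labels' protocols. The deposited values are expected counts per gene, and the submitters' processing notes name FastQC 0.11.9, Trim Galore 0.6.5, STAR 2.7.3a, RSEM 1.3.3 and GRCh38; the annotation release and strand setting are not given in the sources used here. Of 269 columns, 60 matched the samples described here and 209 were not used; 9.37% of values were not whole. Counts were rounded and fitted with edgeR 4.0.16 (R 4.3.3) quasi-likelihood, TMM scaling and filterByExpr, over 57 libraries in 19 groups with 38 residual degrees of freedom (common dispersion 0.01026), giving 17268 tested genes. CPM use the same scaling. Gene positions and exon lengths come from GENCODE 29, which held 57055 of the 60675 genes. The members and the other gene lists were chosen with earlier results of these data known. In each comparison every member past the threshold could be named, at most 10 in each direction with the larger changes first, NQO1, HMOX1, GCLC, GCLM, TXNRD1, SRXN1, AKR1B10, AKR1C1, NFE2L2 and KEAP1 were followed throughout, and up to 4 called genes with the largest change were named from each other list. The comparisons of high with medium dose and of dose changes between extracts were added after the values were seen. Replicate numbers in the labels name no shared culture or day; same-numbered libraries deviated together in every pair in 1 of 39 comparisons, the medium against the low dose of Cimicifugae, and the block changed no call there. No 2 replicates agreed within counting noise (lowest chi-square per degree of freedom 2.03). The model was also run on simulated counts, with a small set of changed genes and no shift in library composition. Those settings differ from the Aconiti libraries, so no conclusion is drawn from that run.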

Additional observations from a re-analysis of the deposited data

Results flagged for a closer look

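The change from the low to the high dose differed between Aconiti and Bupleuri, which share a set label, for 5 of the 36 genes (edgeR quasi-likelihood interaction, adjusted over all tested genes). This was 13.9% of them, against 9.95% of all genes. The difference of the log2 changes was 0.77 for HMOX1 (adjusted p = 1e-05), 0.70 for ABCC3 (5.19e-05), −0.34 for GCLC (0.000842), −0.24 for UGDH (0.0026) and −0.23 for GSR (0.012). Fitted on the compared libraries alone, GCLC (edgeR adjusted p = 0.0549), UGDH (0.122) and GSR (0.188) lost their calls. Without a low-count filter UGDH (0.203) and GSR (0.266) lost theirs. HMOX1 had 175.3, 161.2 and 182.5 CPM at the low dose and 262.8, 316.3 and 312 CPM at the high dose of Aconiti, and 176.9, 190.6 and 185.5 CPM at the low dose and 193.2, 187.1 and 177.7 CPM at the high dose of Bupleuri. The doses themselves differed, 14.4 and 360 µg/mL for Aconiti and 20 and 500 µg/mL for Bupleuri. Mitochondrial transcripts took 16.48 to 18.95% of the counts at the high dose of Aconiti and 8.564 to 9.937% at the high dose of Bupleuri. Removing these transcripts before scaling lost none of the 5 calls, and any further part of theirs in these differences was not tested.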

How the results depend on the processing

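Of 67 called results for single genes, 27 passed under every alternative and 40 were lost under at least 1, and 0 reversed. For these called results, scaling, error model and library choice moved counts more than directions, and the cause was not tested. Of 55 results not called, for the genes followed throughout at the high doses against vehicle, 16 changed sign under at least 1 alternative. Numbers below are genes called of 36, with the percent of all tested genes called under the same setting in parentheses. With transcript length balance as a covariate, counts against vehicle at the high dose were 19 (37.6%) for Aconiti, 15 (14.8%) for Yijung, 6 (7.12%) for Cimicifugae, 2 (3.29%) for Bupleuri, 1 (0.863%) for Banhasasim and 1 (0.232%) for Citri, and at the medium dose 15 (18.2%) for Yijung, 4 (5.5%) for Aconiti and 2 (0.347%) for Cimicifugae. High against low gave 21 (34.8%) for Aconiti, 12 (11.1%) for Yijung, 4 (3.82%) for Cimicifugae, 2 (1.42%) for Bupleuri and 1 (0.0869%) for Citri; high against medium 17 (24.8%) for Aconiti, 3 (3.97%) for Yijung and 2 (1.04%) for Cimicifugae; Yijung medium against low 14 (17.2%); Aconiti against Bupleuri 17 (34.6%); Yijung against Banhasasim 10 (9.83%); and the differences of dose change 12 (19.4%) for Aconiti, 5 (3.39%) for Yijung and 2 (0.324%) for Cimicifugae. With only the compared libraries fitted, counts against vehicle at the high dose were 17 (12.2%; 14 higher, 3 lower) for Cimicifugae, 4 (6.5%) for Bupleuri, 1 (0.918%) for Banhasasim and 1 (0.329%) for Citri, and at the medium dose 3 (7.26%) for Aconiti and 2 (5.75%) for Yijung. High against low gave 4 (9.57%) for Aconiti, 2 (2.19%) for Yijung, 1 (0.26%) for Bupleuri, 1 (0.207%) for Citri and 0 (0.0692%) for Cimicifugae; high against medium 2 (3.81%) for Aconiti and 0 (0.0876%) for Cimicifugae; Yijung medium against low 2 (2.82%); Cimicifugae against Citri 14 (6.73%); Aconiti against Bupleuri 5 (15.7%); and the Aconiti difference of dose change 2 (6.06%). Without library 1 of the Citri medium dose in the shared fit, counts against vehicle were 10 (9.42%) for Yijung high, 5 (3.1%) for Cimicifugae high and 2 (3.69%) for Aconiti medium, with 7 (7.89%) for Yijung medium against low, 6 (6.65%) for Yijung against Banhasasim, and 2 (0.405%) for Cimicifugae and 1 (1.57%) for Yijung high against medium. DESeq2 called 8 (8.89%) for Yijung high, 2 (3.73%) for Aconiti medium and 1 (0.831%) for Citri medium against vehicle, 3 (6.69%) for Yijung against Banhasasim, and 2 (0.436%) for Cimicifugae and 2 (1.67%) for Yijung high against medium. Without a low-count filter, counts were 3 (2.23%) for Yijung high and 1 (0.289%) for Citri medium against vehicle, 1 (0.297%) for Cimicifugae high against low, 1 (0.166%) for Cimicifugae against Citri and 3 (2.76%) for the Aconiti difference of dose change. With mitochondrial genes removed, counts were 1 (2.31%) for Aconiti medium against vehicle, 2 (4.85%) for Yijung against Banhasasim and 1 (1.12%) for Yijung high against medium, and RLE scaling gave 2 (4.87%) and 1 (1.13%) for these Yijung comparisons. Genes with all high-dose libraries above or below all low-dose libraries were 22 for Aconiti and 4 for Citri by total counts, and 10 and 8 with TMM.

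Leaving out 1 library at a time, counts against vehicle ranged over 1 to 3 for Cimicifugae high, 9 to 15 for Aconiti high, 1 to 5 for Yijung high, 2 to 4 for Yijung medium, 0 to 10 for Citri medium and 0 to 1 for Aconiti medium. The share of all genes called was 0.849 to 1.13% where Cimicifugae high had 1 and 5.46% where Yijung high had 1. It was 5.8% where Yijung medium had 2, 13.2% where Citri medium had 10 and 1.62% where Aconiti medium had 1. Within extracts the counts ranged over 1 to 2 for Cimicifugae, 7 to 10 for Aconiti and 2 to 4 for Yijung high against low, 3 to 5 for Yijung medium against low, and 0 to 6 for Citri, 0 to 1 for Cimicifugae, 5 to 7 for Aconiti and 0 to 1 for Yijung high against medium. For high against low, 0.598 to 0.667% of all genes were called where Cimicifugae had 1 and 4.02 to 4.75% where Yijung had 2. For high against medium it was 12.9% where Citri had 6, 0.171% where Cimicifugae had 0 and 0.645 to 0.877% where Yijung had 1. Between extracts the counts ranged over 1 to 1 for Cimicifugae against Citri, 7 to 12 for Aconiti against Bupleuri, 0 to 1 for Yijung against Banhasasim and 4 to 6 for the Aconiti difference of dose change. Of all genes, 0.353 to 0.405% were called for Cimicifugae against Citri. The share was 17.6% where Aconiti against Bupleuri had 7 and 2.62 to 3.63% where Yijung against Banhasasim had 0. For the other counts in these ranges the share of all genes in the same fit is not given here, so they are not set against all genes.

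With the replicate number as a block, the counts were the same as without it in every comparison (3 for Cimicifugae high, 10 for Aconiti high and 5 for Yijung high against vehicle). At 17793655 counts or more per library every member passed the filter on low counts.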
